A study of Mus musculus with 4 samples.

Results

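The genes of MHC class I and its peptide loading were followed in group 3 innate lymphoid cells (ILC3s) of mice after stimulation with TL1A. The set holds 10 genes, chosen by name from the 24343 genes of the deposited count table: B2m, H2-K1, H2-D1, H2-T23, Tap1, Tap2, Tapbp, Tapbpl, Erap1 and Nlrc5. ILC3s are innate lymphocytes without rearranged antigen receptors. They were sorted as lineage-negative cells carrying CD127 and the GFP reporter of the IL-23 receptor locus, and all cells, stimulated or not, came from IL23R-GFP/WT animals. TL1A, a TNF superfamily cytokine, was given to the cells of 2 libraries, and those of the other 2 libraries were kept in medium. The sources used here give no dose, duration of stimulation, tissue or age. They do not say whether the libraries of a group came from separate mice, so the p-values reflect only how far these 4 libraries differ, possibly for technical reasons.

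MHC class I molecules display peptides from inside the cell to CD8 T cells and to receptors of NK cells. Each consists of a heavy chain and the light chain beta-2 microglobulin. Peptides made by the proteasome are carried into the endoplasmic reticulum by the TAP transporter, trimmed there by the aminopeptidase ERAP1 and loaded with the help of tapasin, calreticulin and the disulfide isomerase ERp57. In many cell types transcription of these genes is raised by interferons, through the transactivator NLRC5, and by NF-κB, which TNF receptors activate.

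The libraries held 11849977 and 12605164 reads assigned to transcripts with TL1A, against 11495636 and 12222552 in medium. Levels are given as CPM, read counts scaled to a common library size with TMM factors, which correct for a few genes taking many reads. Of 9852 genes with enough reads to be tested, 42.3% passed the threshold of 0.05 on the Benjamini-Hochberg adjusted p of edgeR's quasi-likelihood test, with 20.6% higher and 21.7% lower with TL1A. Scaling by library totals alone lowered the median log2 fold change of all genes by 0.26, to -0.29, and gave 1310 higher and 3475 lower genes, against 2027 and 2141 with TMM. Several ILC3 genes were present in every library, among them Il7r with 12994 and 13812 reads with TL1A, against 44605 and 48880 in medium. Kit, which has 2 rows, had a single read in 1 medium library. Markers of other cells that carry class I were in part at 0 reads in all libraries, as were Ms4a1 and Pax5 of B cells, Cd8a of T cells and Clec9a of dendritic cells, although genes with several transcript rows such as Cd8a and Clec9a can lose their reads to the counting. Others were present: Xcr1 of dendritic cells had 347 and 420 reads with TL1A, against 2647 and 1557 in medium. Zbtb46, also of dendritic cells, had 469 and 503 reads with TL1A, against 75 and 106 in medium. Cd3g of T cells had 26 and 40 reads with TL1A, against 19 and 44 in medium. Cd79b of B cells had 1226 and 1133 reads with TL1A, against 451 and 630 in medium. Cd14 of myeloid cells had 51 and 66 reads with TL1A, against 574 and 658 in medium. The summed myeloid marker list, led by Fcer1g, had 835 and 829 CPM with TL1A, against 1921 and 1988 CPM in medium, and 5 of its 11 tested genes fell and 2 rose, with 1 higher without medium replicate 2 or without TL1A replicate 2. The B cell list, led by Blk, had 849 and 777 CPM with TL1A, against 154 and 167 CPM in medium, and both of its tested genes rose. The ILC1 and NK cell list, led by Ccl5, had 528 and 519 CPM with TL1A, against 44.3 and 41.9 CPM in medium, with 2 of 6 tested genes higher and 2 lower, and Eomes was at 0. Without medium replicate 1 this list had 4 higher and 1 lower, and without TL1A replicate 2 it had 3 higher and 1 lower. The T cell list, led by Cd4, had 213 and 207 CPM with TL1A, against 499 and 515 CPM in medium, with 2 of 6 tested genes lower and none higher, but 1 lower and 1 higher without medium replicate 2. Within the T cell list, Cd4 had 106 and 84.1 CPM with TL1A, against 356 and 388 CPM in medium. Lat had 99.9 and 116 CPM with TL1A, against 138 and 116 CPM in medium. The 4 sums rest mostly on Fcer1g, Blk, Ccl5, Cd4 and Lat, so they do not by themselves show whether other cell types were present. The part of these lists in the results below was not tested. In sorted bulk cells, fewer cells of a type and less RNA per cell cannot be told apart.

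Of the 10 genes, 6 rose with TL1A (B2m, H2-D1, H2-T23, Tap2, Tapbpl and Nlrc5) and none fell. Among all tested genes, 20.6% rose and 21.7% fell, and the list counts given below stand beside the same shares. H2-K1, Erap1 and Tap1 did not pass, and Tapbp had too few reads to be tested. The 9 tested members had a median log2 fold change of 0.45, against -0.03 for all tested genes, and with library totals the medians were 0.20 and -0.29. With library totals 3 members, B2m, H2-D1 and Tapbpl, stayed higher and Erap1 was called lower. The libraries of the groups did not overlap for 7 of the 9 tested members, beside 72.2% of all tested genes. Together the 10 genes took 2.13% and 2.26% of assigned reads with TL1A, against 1.62% and 1.56% in medium. These shares are on the scale of library totals. With TMM the members summed to 23436 and 24610 CPM with TL1A, against 14830.3 and 14266 CPM in medium.

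**Figure D1:**
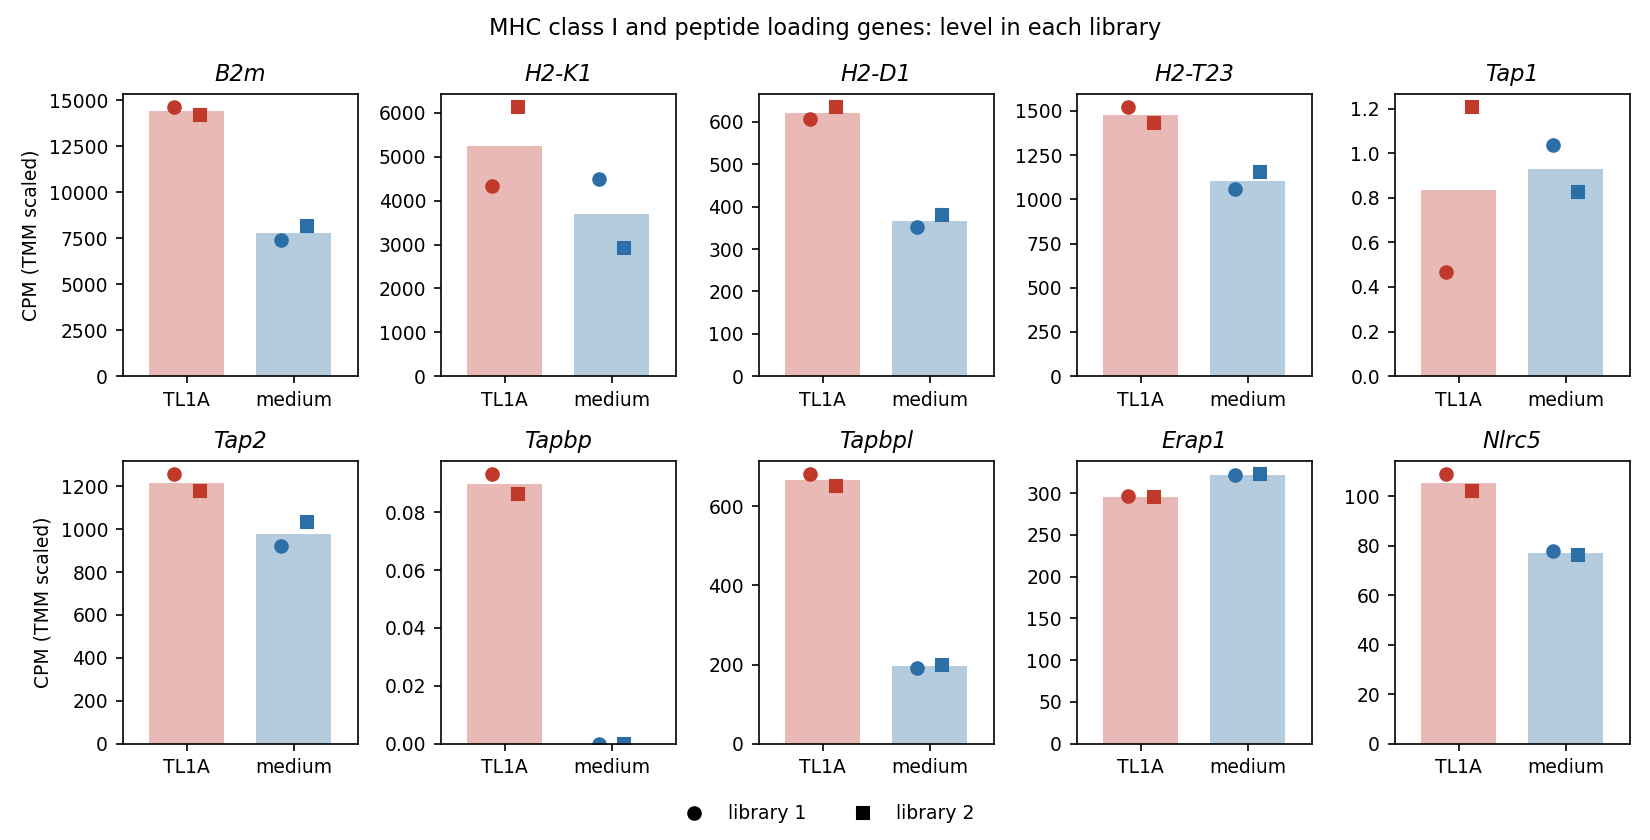
CPM (TMM scaled) of each member in each library, in panels with their own axes from 0. Bars are means of 2 libraries, circles are library 1 and squares library 2 of TL1A (red) and medium (blue). TL1A libraries lie above medium libraries for 6 genes, below for Erap1, and overlap for H2-K1 and Tap1, while Tapbp had 1 read in each TL1A library and none in medium.

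The upstream sequences of the class I chain genes and of Erap1 are shown as background, since NF-κB and interferons act on class I genes in many cell types. Whether either acted on these genes here was not tested. Of the 10 members, 7 had an entry in the RefSeq promoter table of build GRCm38.p6, which runs from 250 bases before to 50 bases after each annotated start. Tap2, Tapbpl and Nlrc5, which rose, had no entry, so their promoters were not searched. For H2-K1 a further, overlapping entry with the same matches is not printed. The entries of B2m, the 3 heavy chains and Erap1, which hold matches, are printed, 5′ to 3′ on the gene's strand. Capitals mark matches on either strand to the 10-base NF-κB consensus, to the interferon consensus of class I promoters, GAANNGAAA, and to the interferon-stimulated response element, searched as GAAA on each side of 2 free bases.
B2m (chr2:122147437-122147736, plus strand): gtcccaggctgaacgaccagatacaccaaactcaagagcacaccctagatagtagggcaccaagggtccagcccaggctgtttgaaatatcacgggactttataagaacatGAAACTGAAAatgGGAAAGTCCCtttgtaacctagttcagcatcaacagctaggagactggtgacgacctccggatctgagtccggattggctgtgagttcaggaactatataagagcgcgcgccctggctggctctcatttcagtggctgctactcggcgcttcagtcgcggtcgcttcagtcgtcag
H2-K1 (chr17:34000298-34000597, minus strand): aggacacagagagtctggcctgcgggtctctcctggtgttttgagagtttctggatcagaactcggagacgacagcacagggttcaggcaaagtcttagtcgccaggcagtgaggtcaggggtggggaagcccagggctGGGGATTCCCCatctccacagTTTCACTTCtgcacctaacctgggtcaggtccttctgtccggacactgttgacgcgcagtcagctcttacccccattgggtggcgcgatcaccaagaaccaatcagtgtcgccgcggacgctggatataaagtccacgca
H2-D1 (chr17:35262844-35263143, plus strand): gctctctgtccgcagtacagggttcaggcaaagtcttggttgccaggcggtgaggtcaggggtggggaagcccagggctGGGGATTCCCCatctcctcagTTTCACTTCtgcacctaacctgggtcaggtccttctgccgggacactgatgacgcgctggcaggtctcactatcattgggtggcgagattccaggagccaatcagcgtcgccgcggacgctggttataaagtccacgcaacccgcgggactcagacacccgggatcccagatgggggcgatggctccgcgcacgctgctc
H2-T23 (chr17:36032652-36032951, minus strand): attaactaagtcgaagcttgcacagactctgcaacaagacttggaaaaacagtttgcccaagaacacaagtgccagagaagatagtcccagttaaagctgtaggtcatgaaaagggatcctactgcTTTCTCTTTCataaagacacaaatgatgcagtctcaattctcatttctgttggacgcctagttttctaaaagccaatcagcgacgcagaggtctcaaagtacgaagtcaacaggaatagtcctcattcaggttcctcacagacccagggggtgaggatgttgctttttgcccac
Erap1 (chr13:74639603-74639902, plus strand): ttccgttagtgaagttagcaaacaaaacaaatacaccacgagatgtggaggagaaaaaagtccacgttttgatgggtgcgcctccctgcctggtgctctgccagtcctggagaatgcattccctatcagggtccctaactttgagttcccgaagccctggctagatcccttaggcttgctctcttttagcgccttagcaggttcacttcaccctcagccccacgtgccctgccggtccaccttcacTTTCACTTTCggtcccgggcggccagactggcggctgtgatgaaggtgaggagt

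The NF-κB consensus was matched in the B2m sequence, starting 126 bases before the annotated start, and in H2-K1 and H2-D1, where a palindrome held overlapping matches on both strands. It was present in 4.51% of the 32851 promoters of the table. The GAANNGAAA pattern followed it in H2-K1 and H2-D1 and was present in 7.52% of promoters. The longest identical stretch between the H2-K1 and H2-D1 sequences was 47 bases and contained the NF-κB palindrome but not the GAANNGAAA match. The interferon-stimulated response element was matched in B2m, H2-T23 and Erap1, in the last across the annotated start, and in 3.44% of all promoters. None of these 3 patterns was found in the windows of Tap1 and Tapbp. CCAAT boxes, searched on both strands and left in lower case, were matched in each of these windows except that of Erap1, and in 37.4% of all promoters. A match describes letters only and does not show that a factor binds.

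B2m, on chromosome 2, encodes the light chain shared by all class I molecules and was the most abundant member. It had 14630.5 and 14182 CPM in the TL1A libraries, against 7418 and 8178 CPM in the medium libraries, so that each stimulated library lay far above each medium library. The mean was 14406 ± 317 CPM with TL1A and 7798 ± 537 CPM in medium (SD, n = 2 each), a 1.85-fold rise (log2 fold change 0.89, SE 0.06, edgeR adjusted p = 3.07e-05). B2m alone took 1.33% and 1.30% of all assigned reads with TL1A, against 0.810% and 0.893% in medium. The B2m transcript shares no exon base with another gene and none of its 50-base windows with transcripts of other genes in GENCODE release M21. Whether its reads aligned uniquely to the whole genome was not tested.

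H2-D1, on chromosome 17, encodes one of the classical heavy chains that present peptides to CD8 T cells. It had 606 and 635 CPM with TL1A, against 351 and 381 CPM in medium, and the groups did not overlap. The rise was 1.70-fold (log2 fold change 0.76, SE 0.07, edgeR adjusted p = 0.000148). H2-T23, on the same chromosome, encodes the heavy chain of Qa-1, which presents class I leader peptides to the NKG2A receptor. H2-T23 had 1522 and 1433 CPM with TL1A, against 1059 and 1152 CPM in medium, again without overlap, and rose 1.34-fold (log2 fold change 0.42, SE 0.07, edgeR adjusted p = 0.00236). With library totals its log2 fold change was 0.16 and the call was lost (adjusted p = 0.0779). Heavy chain genes resemble each other: 14.3% of the 50-base windows of H2-D1, 28.8% of those of H2-T23 and 8.79% of those of H2-K1 also occur in transcripts of other genes. Reads from such windows can be lost as not uniquely aligned, so the levels of these 3 genes are uncertain.

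H2-K1, which encodes the other classical heavy chain, differed as much between libraries of a group as between groups. It had 4337 and 6136 CPM in TL1A libraries 1 and 2, against 4489 and 2923 CPM in medium libraries 1 and 2, so the groups overlapped. The mean was 5237 ± 1272 CPM with TL1A and 3706 ± 1107 CPM in medium (SD, n = 2 each). The log2 fold change of 0.50 did not pass (SE 0.21, edgeR adjusted p = 0.101). It was called without medium replicate 1 (0.84, adjusted p = 0.00412) or without TL1A replicate 1 (0.73, adjusted p = 0.0115). Leaving out medium replicate 2 gave 0.25, and leaving out TL1A replicate 2 gave 0.24, both not called. The other members on chromosome 17 with many reads, H2-D1, H2-T23 and Tap2, had ratios of 0.937 to 1.05 between TL1A libraries 2 and 1, against 1.41 for H2-K1, and of 0.892 to 0.923 between medium libraries 1 and 2, against 1.54 for H2-K1.

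**Figure D2:**
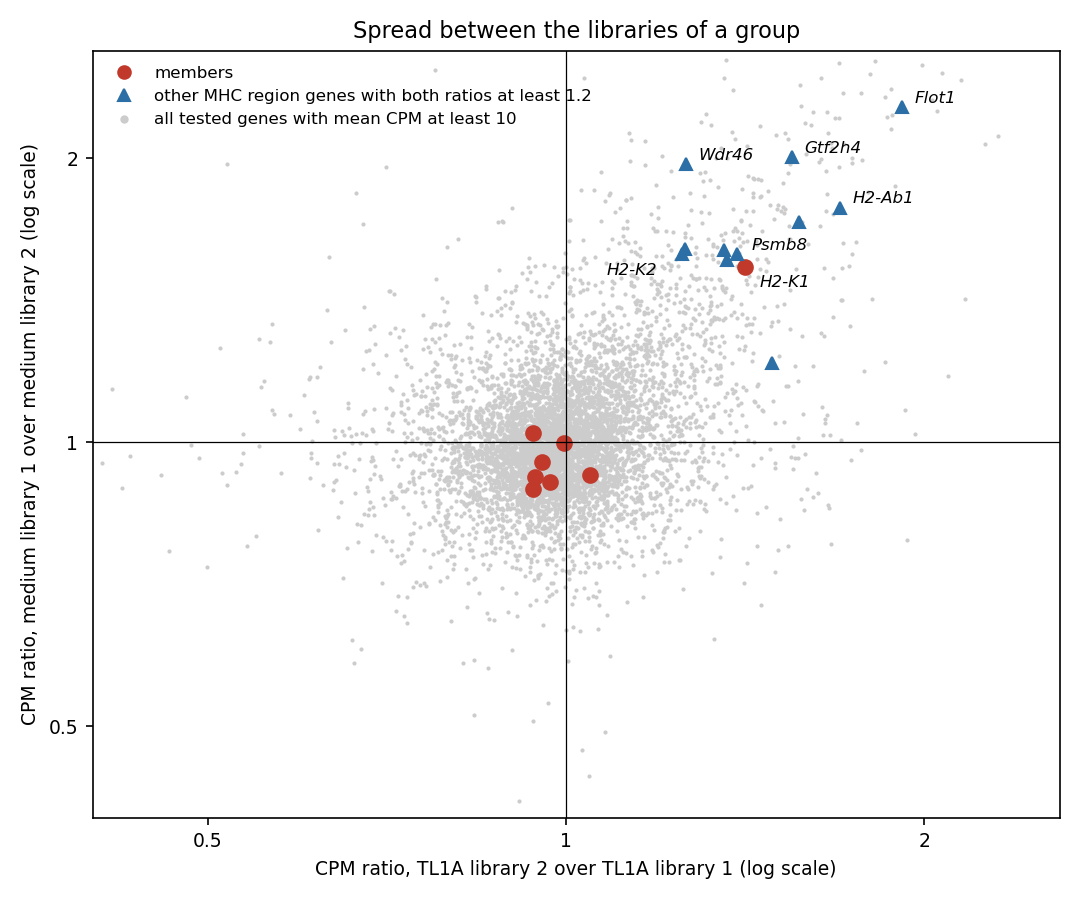
Ratio of CPM between TL1A library 2 and TL1A library 1 (x axis, log scale) and between medium library 1 and medium library 2 (y axis, log scale) for tested genes with a mean of at least 10 CPM (29 lie outside the axes). Red circles are members, and blue triangles are the 11 other genes between Tapbp and H2-M3 whose ratios both reach 1.2. H2-K1 lies at 1.41 and 1.54, away from the other members and beside Psmb8 and H2-K2.

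The TAP transporter is a pair of ABC proteins encoded by Tap1 and Tap2 within the MHC on chromosome 17. Tap2 had 1255 and 1176 CPM with TL1A, against 922 and 1034 CPM in medium, a narrow gap without overlap. Its rise was 1.24-fold (log2 fold change 0.31, SE 0.08, edgeR adjusted p = 0.0137). The call was lost with the replicate number of the titles as a block (adjusted p = 0.0521), without TL1A replicate 1 (adjusted p = 0.0815) and with library totals (log2 fold change 0.05, adjusted p = 0.569). Tap1 was hardly measured, with 5 and 14 reads with TL1A, against 13 and 11 in medium. It has 2 deposited transcript rows, and reads in exons common to several rows were not counted. In the GENCODE transcripts paired with these rows, NM_001161730 has no base of its own. NM_013683 has 339 private bases of 2953, and exons of Psmb9 on the opposite strand cover 212 bases of that transcript. No statement on Tap1 can therefore be made (log2 fold change -0.14, 95% interval -1.59 to 1.32).

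Tapasin, encoded by Tapbp, bridges TAP and empty class I molecules, and its relative TAPBPR, encoded by Tapbpl, edits the peptides of class I molecules outside that complex. Tapbp had 1 read in each TL1A library and none in medium, and it too has 2 rows, which share 2589 bases, while only NM_001025313 has private ones (309). The limit that no reads set in the medium libraries, taken as 3 counts of the assigned reads, was 0.261 and 0.245 CPM, so no comparison was made. Tapbpl, on chromosome 6 with a single row, showed the largest rise of the tested members. It had 7313 and 7537 reads with TL1A, against 2391 and 2670 reads in medium, or 665 ± 21.5 CPM with TL1A and 195 ± 6.78 CPM in medium (SD, n = 2 each). The libraries of each group lay close together, and the rise was 3.41-fold (log2 fold change 1.77, SE 0.07, edgeR adjusted p = 2.04e-06; 1.51 with library totals).

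Erap1, on chromosome 13, encodes the aminopeptidase that trims peptides in the endoplasmic reticulum. It had 296 and 295 CPM with TL1A, against 322 and 322 CPM in medium, so the stimulated libraries were lower by a small and even margin. The log2 fold change was -0.12 (SE 0.07, 95% interval -0.28 to 0.03) and did not pass (edgeR adjusted p = 0.178). With library totals it was -0.38 and called as lower (adjusted p = 0.00263). Cast on the opposite strand overlaps 834 of the 5644 exon bases of Erap1, and the strand setting of the counting is not given in the sources used here.

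Nlrc5, on chromosome 8, encodes the transactivator of class I genes. It had 109 and 102 CPM with TL1A, against 77.7 and 76.0 CPM in medium. The TL1A libraries were both higher, by 1.37-fold on average (log2 fold change 0.45, SE 0.10, edgeR adjusted p = 0.00780). The call was lost without TL1A replicate 1 (0.41, adjusted p = 0.0527) and with library totals (0.20, adjusted p = 0.126).

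**Figure D3:**
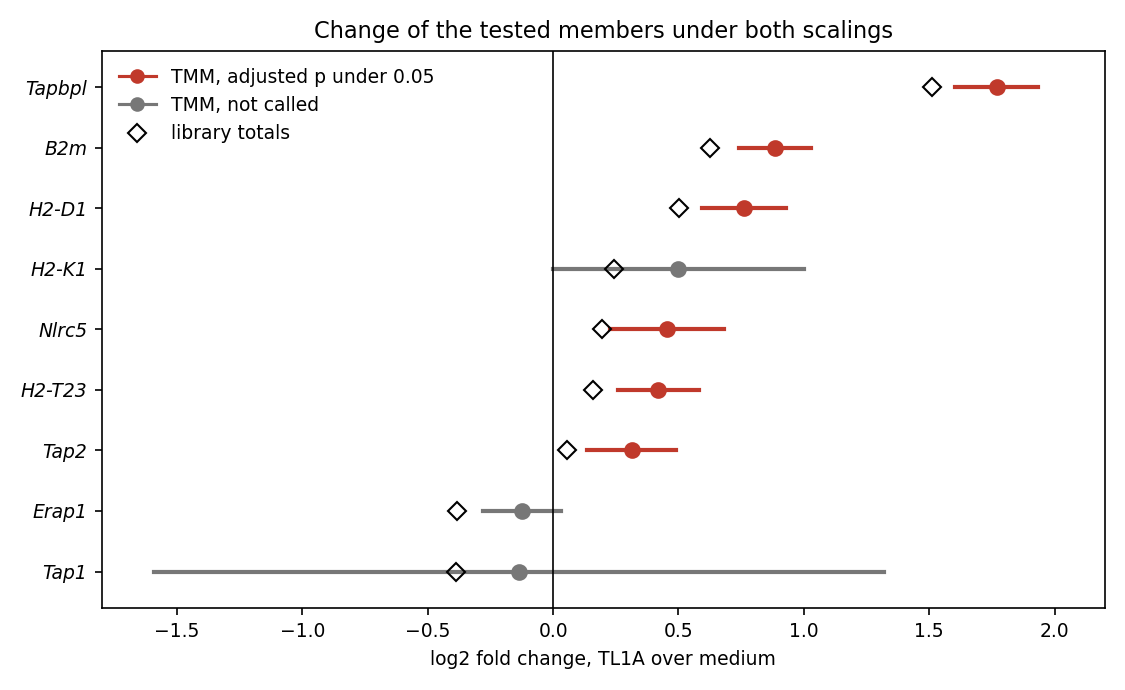
Log2 fold change of TL1A over medium (x axis) for the 9 tested members, as circles with 95% intervals under TMM scaling (red where adjusted p is under 0.05, grey otherwise) and as open diamonds with library totals. Tapbpl lies at 1.77 and 1.51 under the 2 scalings, and Tap2 at 0.31 and 0.05.

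Divided by exon length, levels of single-row members spanned a wide range. B2m had 16751 ± 369 CPM per kilobase with TL1A and 9067 ± 625 in medium (SD, n = 2 each). H2-K1 followed with 3235 ± 786 with TL1A and 2289 ± 684 in medium. H2-T23 had 1004 ± 42.8 CPM per kilobase with TL1A and 751 ± 44.6 in medium. With TL1A, Tap2, H2-D1 and Tapbpl had 353 ± 16.2, 295 ± 9.86 and 283 ± 9.12 CPM per kilobase. The stimulated levels of H2-D1 and Tapbpl differed by little more than their SDs, whereas in medium H2-D1 had 174 ± 9.83 and Tapbpl 83.0 ± 2.88 CPM per kilobase. Erap1, at 52.4 ± 0.172 with TL1A and 57.1 ± 0.0520 in medium, and Nlrc5, at 15.2 ± 0.694 with TL1A and 11.1 ± 0.173 in medium, were lowest.

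Further heavy chain genes lie in the class I region. Of 9 tested, 5 rose, none fell and 4 did not pass, with a median log2 fold change of 0.52; with library totals or without TL1A replicate 2, 3 rose. H2-M3, whose product presents N-formylated peptides, had 252 and 231 CPM with TL1A, against 170.5 and 165 CPM in medium (log2 fold change 0.52, SE 0.08, edgeR adjusted p = 0.00177). H2-Q2 rose by 1.09 (SE 0.27), H2-Q5 by 0.85 (SE 0.23) and H2-T24 by 0.50 (SE 0.14) on the log2 scale. H2-Q5 had 56.0 and 70.4 CPM in TL1A libraries 1 and 2, against 43.3 and 27.0 CPM in medium libraries 1 and 2. Within each group the higher library was the same as for H2-K1, but the groups did not overlap. H2-Q1 had 65 and 48 reads with TL1A, against 2 and 1 in medium, a ratio of 43.7 (95% exact counting interval 14.6 to 215), but its sequence recurs in H2-D1 and H2-T23. H2-Q6, H2-Q7, H2-Q8, H2-Q9 and H2-T10 had 0 reads in every library. H2-Q7 has 3 rows and H2-T10 has 2, and heavy chain genes resemble each other. Absence of these genes can therefore not be told from uncounted reads.

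Of 4 tested class I like genes, 3 fell, none rose, and Procr did not pass (log2 fold change 1.07, SE 0.51). Without medium replicate 2, 1 gene of this list was called higher. Cd1d1, which presents lipids to NKT cells, had 6.88 and 9.57 CPM with TL1A, against 52.3 and 45.4 CPM in medium. Its log2 fold change was -2.56 (SE 0.20, adjusted p = 5.18e-05 by edgeR). Mr1, which presents vitamin B metabolites to MAIT cells, had 25.6 and 21.9 CPM with TL1A, against 41.9 and 51.6 CPM in medium, and fell by 0.98 (SE 0.16). Hfe, a regulator of iron uptake, fell by 1.62 (SE 0.20). These proteins also pair with beta-2 microglobulin, whose gene rose.

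Genes that make and carry peptides rose in part. In the list of the immunoproteasome and its activator, 5 of 7 rose and none fell, with a median log2 fold change of 0.66; 3 rose without medium replicate 2 or without TL1A replicate 1. Psme1, an activator subunit, had 717 and 693 CPM with TL1A, against 357 and 414 CPM in medium (log2 fold change 0.87, SE 0.08). Psmb10, one of the inducible catalytic subunits, rose by 0.66 (SE 0.08) and the assembly factor Pomp by 1.16 (SE 0.08). The other inducible catalytic subunits lie beside Tap1 and Tap2 and did not pass. Psmb8 had 507 and 706 CPM with TL1A, against 651 and 411 CPM in medium, overlapping as H2-K1 did. Psmb9, named here with its values already known, had a log2 fold change of 0.00 (SE 0.10). All 3 standard catalytic subunits rose, by 2.09 for Psmb7 (SE 0.08), 0.97 for Psmb6 (SE 0.07) and 0.32 for Psmb5 (SE 0.10, edgeR adjusted p = 0.0399). Only 2 of them were called with the replicate block, with library totals, and when either TL1A replicate or medium replicate 2 was left out.

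Among the partners of class I in the endoplasmic reticulum, 5 of 7 tested genes rose and none fell, with a median log2 fold change of 1.07. Pdia3, which encodes ERp57 of the loading complex, had 274 and 262 CPM with TL1A, against 118 and 138 CPM in medium (log2 fold change 1.07, SE 0.10, edgeR adjusted p = 0.000114). The chaperone gene Calr rose by 2.19 (SE 0.18), the quality control gene Uggt1 by 0.98 (SE 0.09), and the translocon genes Sec61a1 and Sec61b by 1.12 (SE 0.06) and 1.36 (SE 0.09). Canx, the calnexin gene, has 3 rows and had 0 reads. Peptidases of the cytosol and vesicles were mostly not called: 2 of 9 rose and 1 fell, with a median of 0.04. The share that rose was near the 20.6% of all tested genes, of which 21.7% fell. Tpp2, a large cytosolic peptidase, fell by 0.35 (SE 0.07), while Dpp9 rose by 0.46 (SE 0.13) and Npepps by 0.31 (SE 0.09). Neither rise was called with library totals or the replicate block, the list held 1 higher gene when any single library was left out, and Tpp2 was not called without TL1A replicate 1.

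**Figure D4:**
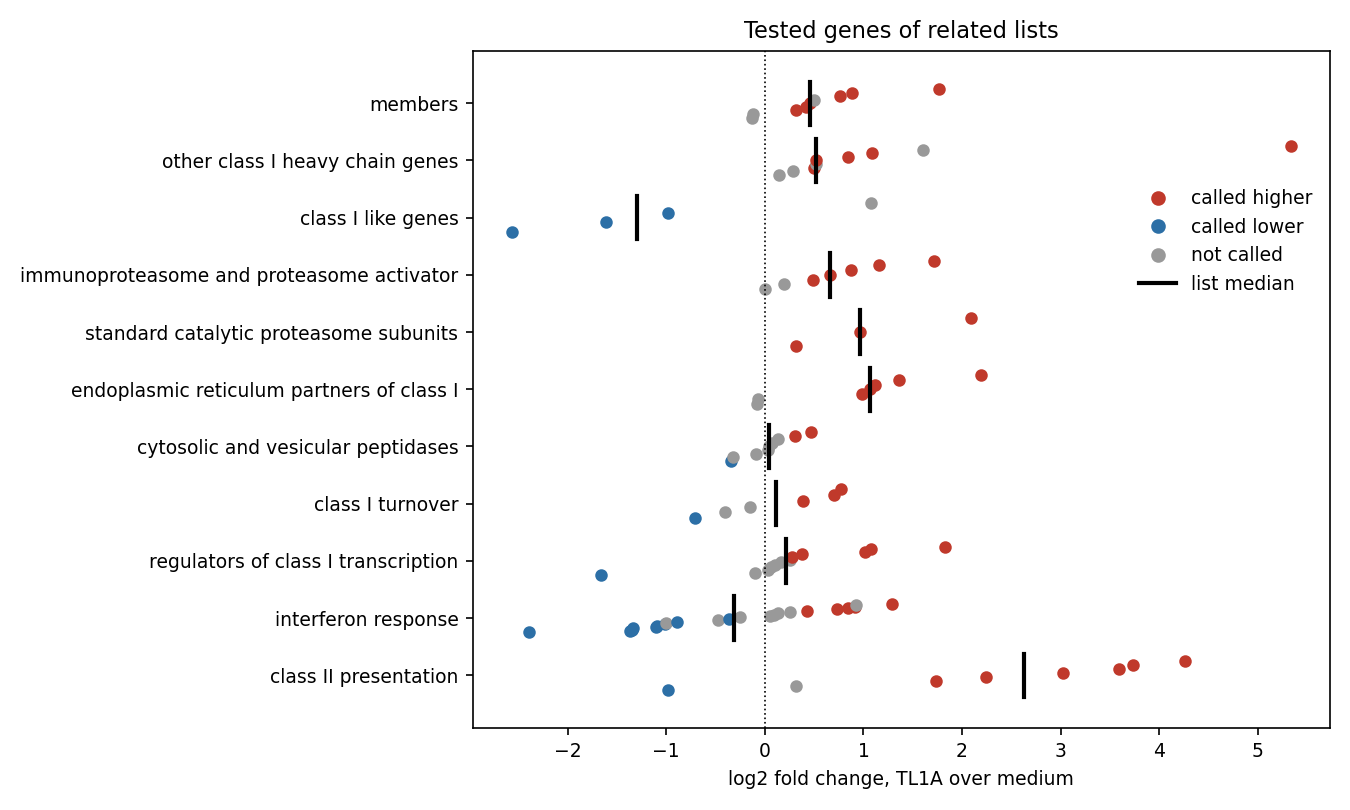
Log2 fold change of TL1A over medium (x axis) for each tested gene of the members and 10 related lists (rows), coloured by call, with the list median as a black bar. The median is 0.45 for the members, 0.52 for the other heavy chain genes, -1.30 for class I like genes and 2.63 for class II presentation.

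Of 12 tested genes in the list of regulators of class I transcription, 5 rose, 1 fell and 6 did not pass. The NF-κB subunit gene Nfkb1 had 485 and 517 CPM with TL1A, against 232 and 242 CPM in medium, a rise of 1.08 on the log2 scale (SE 0.07). Rfx5, a DNA-binding partner of NLRC5, had 28.2 and 27.8 CPM with TL1A, against 7.88 and 7.86 CPM in medium (log2 fold change 1.83, SE 0.16, edgeR adjusted p = 0.000114). Eed, a subunit of the Polycomb complex that represses class I genes in some tumours, rose by 1.02 (SE 0.07), Irf2 by 0.37 (SE 0.07) and Nfyb by 0.27 (SE 0.08). Irf1, an interferon-induced activator with 3 rows, had 5 and 6 reads with TL1A, against 17 and 24 in medium. Its call as lower (adjusted p = 0.0420) was lost under most alternatives, and with library totals 3 genes of the list were higher and 2 lower. Ciita, the class II counterpart of Nlrc5, had 14 and 3 reads with TL1A, against 0 and 1 in medium, over 5 rows.

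Interferon signalling genes gave a mixed picture. Ifng had 131 and 145 reads with TL1A, against 2 and 3 in medium. Of 9 tested genes of interferon ligands, receptors and JAK kinases, 6 rose and 1 fell, and the fall was lost when any single library was left out. Jak1 rose by 0.55 (SE 0.07), Ifnar1 by 0.67 (SE 0.09) and Ifngr2 by 0.70 (SE 0.13). Jak2, which has 2 rows, rose by 3.21 (SE 0.49) on 52 and 37 reads with TL1A, against 6 and 5 in medium. With single-row genes only, 4 genes of this list were called higher. In the interferon response list 5 of 22 tested genes rose and 9 fell, with a median of -0.31. The share that rose was near the 20.6% of all tested genes, of which 21.7% fell. Gbp2 and Gbp6, guanylate-binding protein genes, rose by 0.85 (SE 0.07) and 0.92 (SE 0.12), whereas Usp18 fell by 1.33 (SE 0.12), Irgm1 by 0.89 (SE 0.10) and Oas3 by 1.36 (SE 0.20).

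Among genes linked to class I turnover, 3 of 6 tested rose and 1 fell, and 3 fell with library totals. Wwp2, a ubiquitin ligase, and Tmem127 limit surface class I in human cells. Wwp2 fell by 0.71 (SE 0.07) and Tmem127 rose by 0.38 (SE 0.07). Derl1, which takes part in the export of misfolded proteins from the endoplasmic reticulum, rose by 0.78 (SE 0.12). Sppl2a, which cleaves the class II invariant chain, rose by 0.70 (SE 0.06).

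Few reads were counted for receptors that read class I. In that list 18 of 20 genes had too few reads, among them Klrc1, Cd8a and Lilrb4a with 0 reads in every library, and Klrd1 with none in the TL1A libraries, against 9 and 12 reads in medium. Several of these genes have near-identical copies or several rows, so their absence cannot be told from uncounted reads. Cd244a, the 1 gene of the list that rose (log2 fold change 1.93, SE 0.12), encodes a receptor of CD48 and not of class I. Of the ligands of NKG2D, which resemble class I, Ulbp1 had 31.0 and 26.2 CPM with TL1A, against 9.24 and 10.3 CPM in medium (log2 fold change 1.55, SE 0.18, edgeR adjusted p = 0.000381). H60b, another ligand, fell by 1.48 on the log2 scale (SE 0.44), with 15 and 18 reads with TL1A, against 68 and 38 in medium. The receptor gene Klrk1, which has 3 rows, fell by 2.56 (SE 0.61), on 7 and 2 reads with TL1A, against 32 and 31 in medium. Neither fall was called without medium replicate 1 or without TL1A replicate 2.

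In the class II list 6 of 8 tested genes rose and 1 fell, with a median log2 fold change of 2.63, against 0.45 for the class I members. The difference between these sets was not tested. Cd74, the invariant chain gene, has 2 rows, so reads in exons common to both were not counted. It had 468 and 417 CPM with TL1A, against 22.7 and 23.4 CPM in medium, a rise of 4.26 (SE 0.10) on the log2 scale. H2-Eb1, a beta chain gene of class II, rose by 3.74 (SE 0.10), and the alpha chain gene H2-Aa by 3.02 (SE 0.09). H2-Oa, whose product restrains peptide exchange on class II, fell by 0.98 (SE 0.15). Outside all lists, the genes whose log2 CPM profile over the 4 libraries lay closest to the members' median profile were Nup50, Cyb5b, NR_015479, Ngly1 and Vps37a, at Euclidean distances of 0.0983 to 0.112. Nup50, for example, had 79.2 and 91.0 CPM with TL1A, against 56.9 and 56.1 CPM in medium.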

How the data were processed

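Libraries of mouse ILC3s, 2 with TL1A and 2 in medium, were compared. A SMARTer Ultra Low Input kit gave the cDNA, per the labels' protocols. Per the submitters' processing notes, CASAVA, STAR and HTSeq were used on build mm9, and the sources used here give no versions or strand setting. The authors deposited unnormalized counts, 1 row per RefSeq transcript accession. The 5 summary rows held 69.9% to 71.3% of a column and stayed out of library sizes and tests. Of 33535 transcript rows, 33154 matched a symbol by accession in a RefSeq table (GRCm38.p6, names only). Rows were summed per gene. Reads left ambiguous between rows made up 33.7% to 34.0% of those ambiguous or assigned.

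Tests used edgeR 4.0.16 in R 4.3.3 (filterByExpr with a minimum count of 10, TMM, quasi-likelihood, group as the only term, two-sided, Benjamini-Hochberg over all genes tested), checked on simulated data. That simulation gave all genes a common spread and called 18.4% of genes with a true log2 change of 0.5. It called 84% at a change of 1 and 0.0634% of unchanged genes. A gene that did not pass may therefore still have changed. With 2 libraries a group, exact permutation p-values start at 0.333. SE is the log2 fold change over the root of F, and 95% intervals use the fit's degrees of freedom. Intervals and floors from reads cover counting error only. DESeq2 1.42.0, limma 3.58.1 and other settings were alternatives. Members, lists and rules were chosen with earlier results of these data known. The text names every member, takes genes of a list from the 6 tested ones with the smallest p or from those at 0 or too low, and gives the 5 nearest profiles. Genes beyond that rule, namely Psmb9 and the region genes beside H2-K1, were chosen after their values were seen.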

Additional observations from a re-analysis of the deposited data

How the results depend on the processing

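Beyond leaving out libraries, 7 other settings (RLE factors, no low-count filter, DESeq2, limma-voom, the replicate block, single-row genes and rows on their own) gave 1736 to 2158 higher and 1740 to 2285 lower genes. They called 5 to 7 members higher and 0 lower, with a median of 0.45 to 0.48. Leaving out each library gave 1596 to 1956 higher and 1597 to 1822 lower genes, 5 to 7 members higher and 0 lower, and a median of 0.41 to 0.47. Library totals, added after the data were seen, gave 1310 higher and 3475 lower genes, 3 members higher and 1 lower, and a median of 0.20. All of its values shift by construction, since the median of all genes moves by -0.26, and the members' median stayed 0.48 above that of all genes, as with TMM. The sign of Tap1 reversed without medium replicate 1 (0.03) and without TL1A replicate 1 (0.38), on few reads, and ranged down to -0.97 over single left-out libraries. H2-K1 was called with no low-count filter (adjusted p = 0.00374).

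The replicate numbers of the titles shared no stated source, and deviations of same-numbered libraries correlated at -0.105 across genes. With the replicate block the Tap2 value was 0.31 (adjusted p = 0.0521), and no other member changed its call. The crossed pairing, added after the data were seen, called 2295 genes higher and 2439 lower, and 7 members higher. Tap1 and Tapbp had few reads in rows with few or no private exon bases.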

Other observations

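H2-K1 was not alone in its order of libraries. With a ratio and a region chosen after the values were seen, 12 of 65 tested genes between Tapbp and H2-M3 with a mean of at least 10 CPM (18.5%) were at least 1.2 times higher in TL1A library 2 than in TL1A library 1 and in medium library 1 than in medium library 2. The same held for 360 of 6381 other tested genes (5.64%). The opposite pairing, with TL1A library 1 and medium library 1 high, held for 0 of 65 and for 75 of 6381 genes. H2-Ab1, a class II chain gene, had 180 and 306 CPM in TL1A libraries 1 and 2, against 93.5 and 52.7 CPM in medium libraries 1 and 2. Flot1 had 19.7 and 37.8 CPM in TL1A libraries 1 and 2, against 49.4 and 21.8 CPM in medium libraries 1 and 2. H2-K2 had 68.5 and 85.6 CPM with TL1A, against 77.3 and 48.8 CPM in medium. The neighbours H2-D1, H2-T23 and Tap2 did not follow this order. What the libraries with high values share was not tested.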
